A study of Mus musculus with 2 samples.

Results

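The 10 genes described here encode uptake receptors and complement chains that are best known from macrophages: Msr1, Marco, Cd68, Mrc1, Cd163, Mertk, Axl, C1qa, C1qb and C1qc. They were found by an exact match of the gene name in the expression tables, which list 35522 features, and all 10 were present in both. Their RNA was measured in neutrophils from the bone marrow of Balb/C mice between 5 and 8 weeks of age, which had been sorted as CD11b positive, Ly-6G high and Ly-6C low or negative. The cells of both groups were kept for 3 days in RPMI-1640 that contained GM-CSF, a myeloid growth factor, at 10 ng/ml, and received either PBS or 20 μg/ml tumor exosomes. The exosomes were vesicles shed by SDCSCs, which are CT26 mouse colon carcinoma cells grown as stem cell-like spheres. With 1 library per group, no spread between cultures can be given, no test between the treatments was possible, and every difference below is a difference between these libraries. Whether cells of several animals were pooled is not stated.

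Scavenger receptors are surface proteins that bind modified lipoproteins, microbial surfaces and debris and carry them into the cell. Efferocytosis is the uptake of dying cells, for which the receptor kinases Mertk and Axl bind bridging proteins attached to phosphatidylserine on the dying cell. C1q, the recognition part of the first complement component, is assembled from A, B and C chains, is made largely by macrophages and also tags dying cells for uptake.

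Values are RPKM, the reads of a gene divided by its exon length and by the mapped reads of the library, so levels can be compared between genes. About 65.96 M (mega) mapped reads stood behind the PBS library and 79.13 M behind the exosome library, as estimated from the smallest RPKM values. Genes that reached 0.25 RPKM in both libraries are called kept. A gene is called up where the exosome value was 2 or more times the PBS value, and down where it was 0.5 times or less. Of 9698 kept genes, 3056 (31.5%) were up and 545 (5.62%) were down, and the median log2 ratio was 0.53. After removal of this shift (median centring) the numbers were 1634 up and 1282 down. All ratios of the 10 genes are therefore to be read against a background that was itself higher with exosomes.

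Of the 10 genes, 5 were kept (Msr1, Marco, Cd68, C1qb and C1qc), and 4 of these were up and 0 were down, with a median log2 ratio of 2.94. Because this filter removes genes that were low in PBS, the count was also made over genes with at least 10 estimated reads in each library. Of 10557 such genes, 32.4% were up and 6.93% were down, and the median log2 ratio was 0.52. By this rule 9 of the 10 genes could be counted, 8 were up, 0 were down, 9 of 9 stood higher with exosomes, and their median log2 ratio was 2.98. Cd163 could not be compared at this depth.

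**Figure D1:**
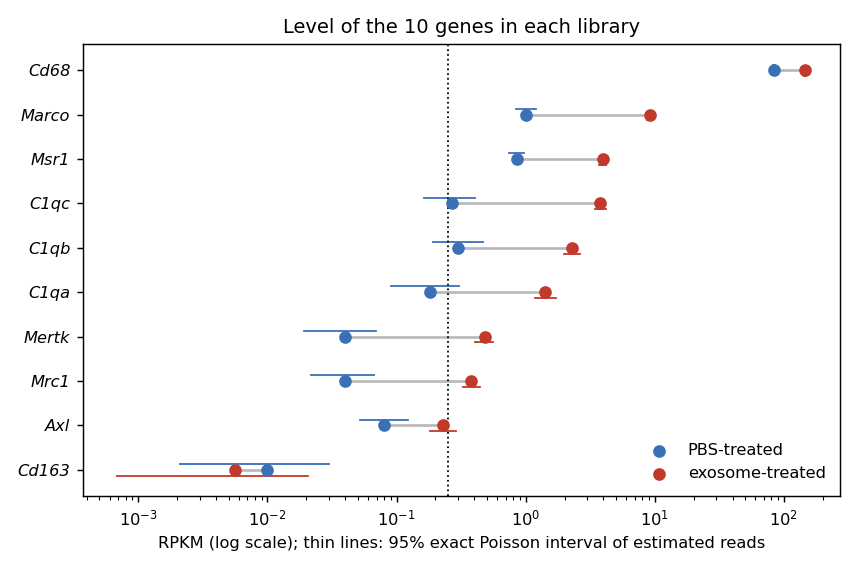
RPKM of each of the 10 genes (log axis) in the PBS-treated library (blue) and the exosome-treated library (red), with thin lines for the 95% exact Poisson interval of the estimated reads and a dotted line at the filter of 0.25. Cd68 lies far above the other genes in both libraries, 9 genes lie further right with exosomes, and the intervals of Cd163 overlap.

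The class A scavenger receptors Msr1 and Marco are trimeric proteins with a collagen-like stalk that bind oxidized lipoproteins and bacteria. Msr1 (chr8:39581685-39642673, minus strand, build GRCm38) stood at 0.85 RPKM in PBS and 3.94 with exosomes, on about 204 and 1134 reads. The ratio was 4.64 with a 95% counting interval of 3.99 to 5.40. Intervals of this kind are exact Clopper-Pearson intervals of the estimated reads, and they cover counting error only. Marco (chr1:120474538-120505024, minus strand) had an RPKM of 1.01 in PBS and 9.21 with exosomes, a ratio of 9.12 (counting interval 7.62 to 11.0). The counting intervals of the 2 receptors did not overlap, so the ratio of Marco was the larger one beyond counting error. In PBS the level of Marco was 1.19 times that of Msr1 (interval 0.943 to 1.49), and with exosomes it was 2.34 times (2.16 to 2.53).

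Cd163, a receptor for complexes of haptoglobin and hemoglobin, is also counted among the scavenger receptors. It (chr6:124304656-124330527, plus strand) had an RPKM of 0.01 in PBS and 0.00563 with exosomes, which correspond to 3 and 2 reads. Both values lie at or below the level of 3 reads, 0.0102 RPKM in PBS and 0.00853 with exosomes, so no ratio is given. The upper bounds of the exact 95% Poisson intervals were 0.0299 RPKM in PBS and 0.0205 with exosomes, so the level of Cd163 with exosomes was more than an order of magnitude below that of Mrc1 or Mertk.

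Cd68, a heavily glycosylated lysosomal membrane protein of the LAMP family, was the most abundant of the 10 genes in both libraries. It (chr11:69664213-69666153, minus strand) had an RPKM of 83.91 in PBS and 145.79 with exosomes, a ratio of 1.74 (counting interval 1.69 to 1.79). Its level stood above that of 96.0% of the genes with an RPKM above 0 in PBS and of 97.9% with exosomes. Cd68 made up 96.8% of the summed RPKM of the 10 genes in PBS and 87.0% with exosomes. Without it the sum was 2.78 RPKM in PBS and 21.8 RPKM with exosomes, or 7.83 times as much. Among the relatives of Cd68, Lamp1 had an RPKM of 83.99 in PBS and 282.03 with exosomes (ratio 3.36, interval 3.29 to 3.43), and Lamp2 had 61.86 and 76.8 (ratio 1.24). Lamp3 stood at 0.02 and 0.04 RPKM.

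Mrc1 encodes the mannose receptor, CD206, a lectin that takes up glycoproteins and is used as a marker of alternatively activated and tissue macrophages. It (chr2:14229392-14332057, plus strand) had an RPKM of 0.04 in PBS and 0.38 with exosomes, on about 14 and 162 reads. The ratio was 9.50 (counting interval 5.58 to 18.04), and rounding of the deposited values alone allows 8.33 to 11.0. The other members of the mannose receptor family were lower with exosomes or near 0. Mrc2, which takes up collagen, stood at 0.09 RPKM in PBS and 0.02 with exosomes, and Ly75, a receptor of antigen-presenting cells, at 2.27 and 1.76 (ratio 0.775). Pla2r1 was listed at 0 in PBS and at 0.00178 RPKM with exosomes.

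**Figure D2:**
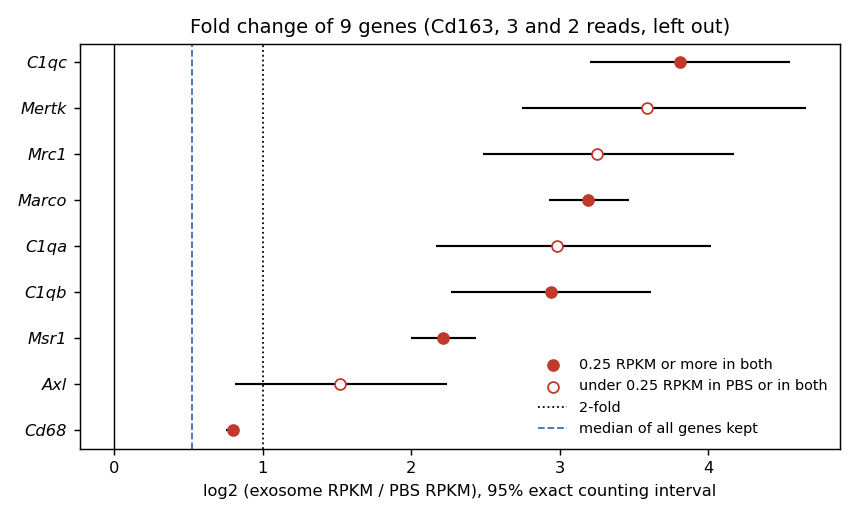
Log2 of the exosome over the PBS RPKM for 9 of the genes, ordered by size, with bars for the 95% exact counting interval; filled points are genes with at least 0.25 RPKM in both libraries, the dashed line is the median of all kept genes (0.53) and the dotted line marks 2-fold. Only Cd68 (0.80) lies left of the 2-fold line, the interval of Axl (1.52) reaches across it, and the other 7 intervals lie to its right.

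Mertk and Axl belong with Tyro3 to the TAM family of receptor tyrosine kinases, in which Mertk is known for steady-state clearance by macrophages and Axl for clearance under inflammation. Mertk (chr2:128698956-128802894, plus strand) had an RPKM of 0.04 in PBS and 0.48 with exosomes, on about 11 and 163 reads. The ratio was 12 (counting interval 6.72 to 25.2), and rounding alone allows 10.6 to 13.9. Axl (chr7:25757273-25788705, minus strand) had an RPKM of 0.08 in PBS and 0.23 with exosomes, on about 23 and 78 reads, a ratio of 2.88 (interval 1.76 to 4.72). The level of Axl relative to Mertk differed between the libraries, though their order in PBS was within counting error. In PBS the level of Axl was 2 times that of Mertk (interval 0.988 to 4.79), whereas with exosomes it was 0.479 times that of Mertk (0.364 to 0.636), and these intervals did not overlap.

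The third kinase, Tyro3, was at the limit of detection, with 0.01 RPKM in PBS and 0.00634 with exosomes, or 3 and 2 reads. Of the bridging ligands, Gas6, which binds all TAM kinases, had 0.03 RPKM in PBS and 0.28 with exosomes (about 5 and 56 reads, ratio 9.33, interval 3.77 to 29.9). Pros1, which encodes protein S and has a main role as an anticoagulant, had 0.16 RPKM in PBS and 0.14 with exosomes (ratio 0.875, interval 0.540 to 1.44). The ligands thus differed from each other beyond counting error. The proteases that shed the receptors from the surface were far more abundant than the kinases. Adam17, which cleaves Mertk, had 151.07 RPKM in PBS and 141.41 with exosomes (ratio 0.936), and Adam10, which can cleave Axl, had 22.9 and 39.31 (ratio 1.72).

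The genes of the C1q chains lie next to each other on the minus strand of chromosome 4 within 18675 bases, in the order C1qb (chr4:136880129-136886187), C1qc (chr4:136889804-136893065) and C1qa (chr4:136895917-136898803). C1qa had an RPKM of 0.18 in PBS and 1.42 with exosomes, on about 12 and 117 reads, a ratio of 7.89 (counting interval 4.48 to 16.2). C1qb had 0.3 RPKM in PBS and 2.3 with exosomes, on about 22 and 198 reads, a ratio of 7.67 (4.82 to 12.2). C1qc had 0.27 RPKM in PBS and 3.79 with exosomes, on about 21 and 361 reads, a ratio of 14.0 (9.23 to 23.4). All 3 chains were thus higher with exosomes, and their intervals overlapped each other.

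The 3 chains are built into C1q in equal number, and their RNA levels can be set against each other within a library. In PBS, C1qa, C1qb and C1qc held 24%, 40% and 36% of the summed RPKM of the chains. With exosomes they held 18.9%, 30.6% and 50.5%. C1qc stood at 1.5 times C1qa in PBS (interval 0.711 to 3.37) and at 2.67 times with exosomes (2.16 to 3.31), and at 0.9 times C1qb in PBS (0.452 to 1.65) and 1.65 times with exosomes (1.38 to 1.97). In both cases the intervals of the libraries overlapped. Overlap of intervals does not show that the balance was the same, and a difference in the balance of the chains was not tested. The summed RPKM of the chains was 0.75 in PBS and 7.51 with exosomes, a ratio of 10.0. The chains together held about 55 and 676 reads. The counting interval of the ratio of these pooled reads, which is not exactly that of the summed RPKM, was 7.78 to 13.7.

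The proteases that C1q carries in serum were measured too. C1ra had 0.53 RPKM in PBS and 0.92 with exosomes, a ratio of 1.74 (interval 1.37 to 2.22), while C1rb stood at 0.03 and 0.02 RPKM. C1ra and C1rb are near-identical copies, so the split of reads between them is uncertain. C1s was listed at 0.00508 and 0.00423 RPKM, close to the lowest values of the tables.

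**Figure D3:**
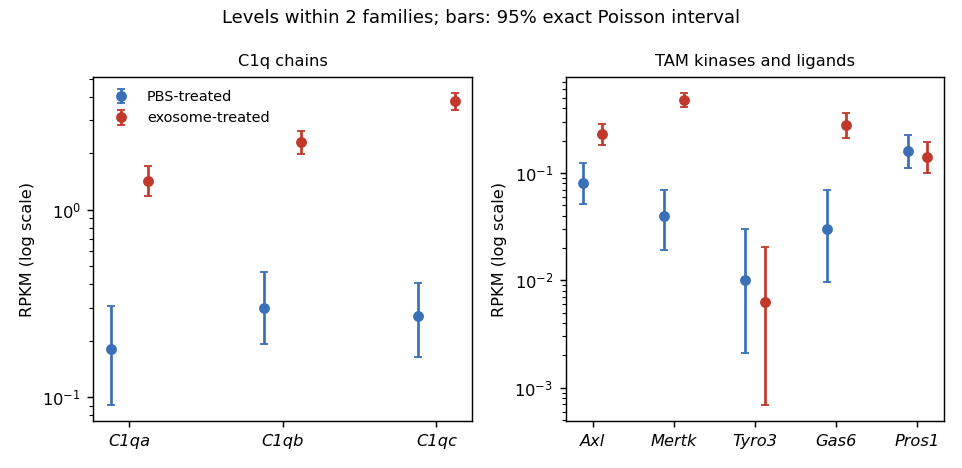
RPKM (log axes) of the C1q chains (left) and of the TAM kinases with their ligands (right) in the PBS-treated (blue) and exosome-treated (red) library, with 95% exact Poisson intervals of the estimated reads. The 3 chains lie higher with exosomes, Axl lies above Mertk in PBS and below it with exosomes, and Tyro3 and Pros1 have intervals that overlap between the libraries.

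The stretch of 250 bases before the RefSeq start is shown for C1qc, Mertk, Mrc1 and Marco, the 4 genes with the highest ratios, and for C1qb, the neighbor of C1qc, since these genes stood higher together. The sequences are those of RefSeq for GRCm38.p6, 5′ to 3′ on the strand of the gene, and 8 of the 10 genes were matched. The RefSeq start is not always the outer end of the GENCODE gene given above, and for C1qc and Mrc1 the stretch reaches into that gene. Capitals mark GAGGAA, a core of sites bound by Ets-family factors such as PU.1, or its reverse complement TTCCTC. The stretches are chr4:136892915-136893164 (minus strand) for C1qc, chr4:136886201-136886450 (minus) for C1qb, chr2:128698665-128698914 (plus) for Mertk, chr2:14229164-14229413 (plus) for Mrc1 and chr1:120505025-120505274 (minus) for Marco.
C1qc: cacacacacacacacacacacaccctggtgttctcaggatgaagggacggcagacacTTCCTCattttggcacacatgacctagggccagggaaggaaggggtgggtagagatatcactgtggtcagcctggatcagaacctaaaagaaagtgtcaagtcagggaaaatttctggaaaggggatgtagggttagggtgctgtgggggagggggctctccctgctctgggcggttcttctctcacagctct
C1qb: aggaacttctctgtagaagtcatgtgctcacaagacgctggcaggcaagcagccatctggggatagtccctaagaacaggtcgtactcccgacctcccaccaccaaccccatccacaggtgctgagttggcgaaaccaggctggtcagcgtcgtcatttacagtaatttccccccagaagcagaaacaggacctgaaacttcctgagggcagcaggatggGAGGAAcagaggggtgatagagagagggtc
Mertk: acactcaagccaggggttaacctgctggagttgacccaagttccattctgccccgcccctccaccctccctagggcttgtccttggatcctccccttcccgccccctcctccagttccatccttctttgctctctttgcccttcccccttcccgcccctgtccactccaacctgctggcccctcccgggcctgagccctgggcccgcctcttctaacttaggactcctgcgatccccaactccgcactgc
Mrc1: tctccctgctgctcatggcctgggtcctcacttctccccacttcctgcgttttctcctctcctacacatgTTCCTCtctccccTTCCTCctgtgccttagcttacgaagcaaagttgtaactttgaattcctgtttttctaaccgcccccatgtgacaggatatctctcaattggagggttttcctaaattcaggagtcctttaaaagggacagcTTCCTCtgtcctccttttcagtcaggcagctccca
Marco: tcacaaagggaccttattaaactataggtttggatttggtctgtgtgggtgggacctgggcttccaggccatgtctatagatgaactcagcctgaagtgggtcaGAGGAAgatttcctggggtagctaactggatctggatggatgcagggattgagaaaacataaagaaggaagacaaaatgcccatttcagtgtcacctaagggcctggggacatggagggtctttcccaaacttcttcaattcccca

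GAGGAA on either strand was found in 6 of the 8 stretches (Marco, Mrc1, C1qb, C1qc, Axl and Cd68) and in 23.3% of 32851 RefSeq promoters of the same length. Mrc1 held 3 matches, and the match of C1qb began 30 bases before the RefSeq start. Mertk held none, although its ratio was among the highest. GGGCGG, the core of sites bound by Sp1-family factors, was found in 5 of the 8 (Mrc1, Mertk, C1qc, Axl and Cd68) and in 32.7% of all promoters. TGCTGA, part of sites of the Maf factors, was found in C1qb only (16.1% of promoters), AGGTCA, a nuclear receptor element, in C1qc only (14.0%), and TGANTCA, the AP-1 site, and TTGCNNAA, the C/EBP site, in Cd68 only (6.75% and 9.56%). The interferon-stimulated response element (2.98%) and TATAAA (12.4%) were found in 0 of the 8. All 8 motifs were searched on both strands. A match is a description of letters and no measure of binding, and the motifs were chosen with the sequences known.

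Ranked by level, the genes stood in the order Cd68, Marco, Msr1, C1qb, C1qc, C1qa, Axl, Mrc1 with Mertk, and Cd163 in PBS. Neighbors that did not differ beyond counting error were Marco and Msr1, C1qb and C1qc, C1qc and C1qa, C1qa and Axl, and Mrc1 and Mertk. With exosomes the order was Cd68, Marco, Msr1, C1qc, C1qb, C1qa, Mertk, Mrc1, Axl and Cd163, and only Msr1 and C1qc (ratio 1.04, interval 0.922 to 1.17) did not differ beyond counting error. Cd68, Marco and Msr1 thus kept the first places. Axl stood above Mertk and Mrc1 in PBS and below both with exosomes. In PBS, however, Axl and Mertk did not differ beyond counting error (interval of their ratio 0.988 to 4.79).

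Apart from Cd68, the genes were expressed at low or middle levels. With exosomes Marco stood above 68.9% of the genes with an RPKM above 0, Msr1 above 55.8% and C1qc above 55.2%. Mertk stood above 34.8%, Mrc1 above 33.0% and Axl above 29.5%. In PBS the same shares were 46.5% for Marco, 44.6% for Msr1, 32.7% for C1qc, 22.1% for Axl and 16.0% for both Mertk and Mrc1. Set against the 10557 genes with at least 10 reads, 62 had a larger ratio than C1qc, 82 a larger one than Mertk, 131 than Mrc1 and 147 than Marco. For C1qa and C1qb these numbers were 209 and 220, and for Msr1 761. Axl was exceeded by 1917 genes and Cd68 by 4125.

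The difference between the libraries depended on the level of a gene, so each gene was also set against a window of the kept genes nearest to it in mean level. These neighbors had a median log2 ratio of 1.12 for Msr1, 1 for Marco, 1.03 for C1qc and 1.08 for C1qb, but of only 0.0016 for Cd68. After this median was taken away, a log2 ratio of 1.09 was left for Msr1, 2.19 for Marco, 2.78 for C1qc and 1.86 for C1qb. Cd68 was left at 0.80. Msr1 therefore stood closer to genes of its own level than its ratio against all genes shows. For C1qa, which was itself not kept, the neighbors had a median of 0.61, and 2.37 was left. No kept gene can lie as low in PBS as C1qa, which limits the ratios of these neighbors, so 2.37 may be too large. Mrc1, Mertk and Axl lie below the kept genes in level, so they could not be set against kept genes of their own level.

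**Figure D4:**
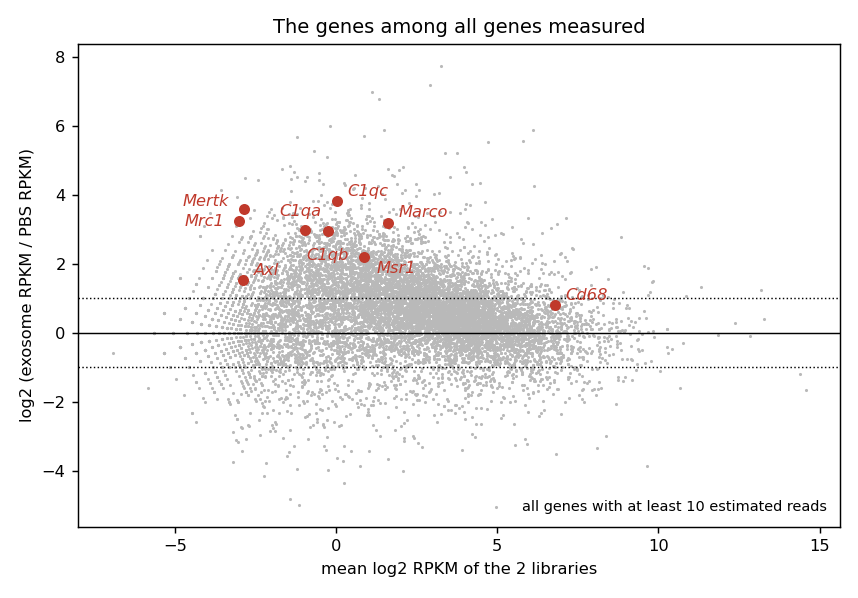
Log2 of the exosome over the PBS RPKM against the mean log2 RPKM of both libraries for every gene with at least 10 estimated reads in each (grey), with 9 of the genes in red and dotted lines at 2-fold up and down. Grey points of low to middle level are centred above 0, Cd68 lies at the right within the grey band, and C1qc, Mertk, Mrc1 and Marco lie near its upper edge.

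Related genes were compared as lists. Of 19 other scavenger receptors, 10 were kept, and 4 of them were up and 1 was down (median log2 ratio 0.58). Scarb1, a receptor for high-density lipoprotein, had 0.47 RPKM in PBS and 1.94 with exosomes (ratio 4.13). Colec12, a membrane collectin, had 0.25 and 1.70 (ratio 6.80). Lrp1, an endocytic receptor that also acts in efferocytosis, had 0.26 and 1.66 (ratio 6.38), and Cxcl16, a chemokine whose membrane form binds oxidized lipoprotein, had 0.47 and 2.14 (ratio 4.55). These were the 4 genes up. The gene down was Ager, which encodes the receptor for advanced glycation end products, with 10.38 and 3.99 RPKM (ratio 0.384). Cd6, a T cell protein of the scavenger receptor superfamily, was not kept and had 0.43 and 0.04 RPKM on about 133 and 15 reads (ratio 0.093). Ager and Cd6 are named after their values were seen.

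Of 29 other efferocytosis genes found, 23 were kept, with 4 up and 4 down and a median log2 ratio of 0.15, below that of all kept genes. Abca1, a transporter that exports cholesterol after uptake of dying cells, had 0.67 RPKM in PBS and 16.11 with exosomes, a ratio of 24.0 (interval 21.9 to 26.5). Havcr2, which encodes the phosphatidylserine-binding protein TIM-3, had 0.38 and 4.28 RPKM, a ratio of 11.3 (8.83 to 14.7). The other 2 genes up were Elmo2, an adaptor of engulfment, with 2.12 and 7.32 RPKM (ratio 3.45), and Cd47, a signal against uptake, with 26.13 and 57.91 (ratio 2.22). The 4 genes down were more abundant in PBS than Abca1 and Havcr2. Thbs1, which encodes the bridging protein thrombospondin, had 68.66 and 17.18 RPKM (ratio 0.2502), and Anxa1, which encodes annexin A1, had 663.57 and 276.17 (ratio 0.416). Itgb5, an integrin chain, had 5.82 and 2.53 (ratio 0.435), and Cd300lb, a receptor of the CD300 family, had 237.55 and 115.36 (ratio 0.486). Timd4, the phosphatidylserine receptor of resident macrophages, was listed at 0 in both libraries. The efferocytosis genes given here other than Abca1 and Havcr2 are named after their values were seen.

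Of 24 other complement genes found, 12 were kept, with 4 up, 3 down and a median log2 ratio of 0.42. C3ar1, the receptor for the C3a fragment, had 0.63 RPKM in PBS and 90.73 with exosomes, a ratio of 144 (interval 124 to 168). C1qbp, a mainly mitochondrial protein that can bind the globular heads of C1q, had 1.3 and 5.64 RPKM (ratio 4.34). The other 2 genes up were C3, the central complement component, with 137.25 and 512.42 RPKM (ratio 3.73), and Cfp, which encodes properdin, with 43.32 and 155.09 (ratio 3.58). The 3 genes down were Cd55, a membrane inhibitor of complement, with 8.75 and 2.31 RPKM (ratio 0.264), Cd93, with 27.57 and 9.2 (ratio 0.334), and Itgax, a chain of complement receptor 4, with 8.98 and 4.19 (ratio 0.467). These 5 genes are named after their values were seen. Of 18 regulators of macrophage genes, 14 were kept, of which 1 was up and 0 were down (median log2 ratio 0.10). The gene up was Klf4, a factor of monocyte differentiation, with 0.58 RPKM in PBS and 4.36 with exosomes (ratio 7.52). By the rule of at least 10 reads 4 of 16 regulators were up. The lists were written with results of these data known, and their counts describe these libraries alone.

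**Figure D5:**
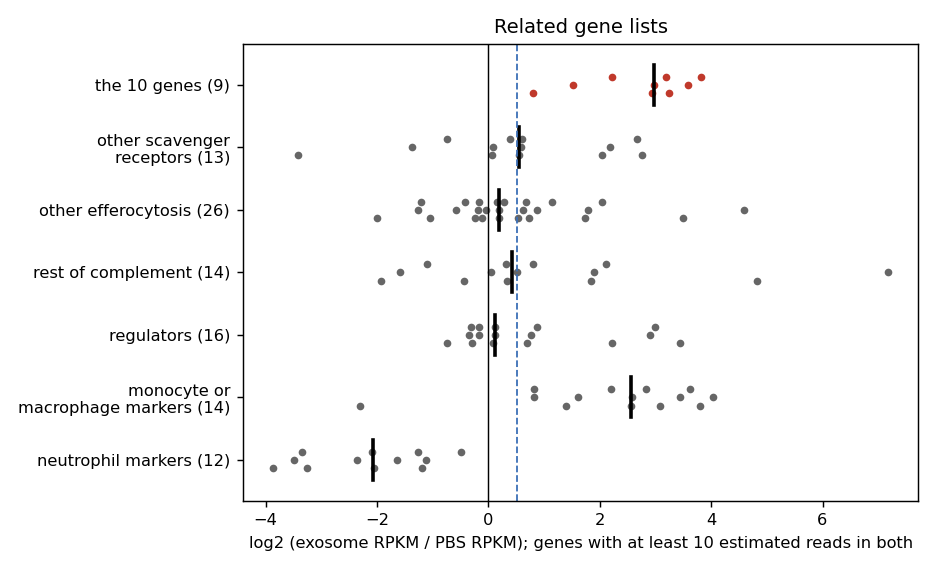
Log2 of the exosome over the PBS RPKM for genes with at least 10 estimated reads in both libraries, grouped by list (number of genes in parentheses), with black bars for list medians, a dashed line for the median of all such genes (0.52) and a vertical scatter that carries no value. The 9 genes and the monocyte or macrophage markers lie mostly right of the dashed line, and the neutrophil markers lie left of 0. The medians of the other scavenger receptors (0.55) and the rest of complement (0.42) lie near the dashed line. Those of the other efferocytosis genes (0.19) and the regulators (0.12) lie left of it.

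Markers of cell types also differed between the libraries. All 12 neutrophil markers were kept and lower with exosomes, 11 of them at least 2-fold, with a summed RPKM of 84709 in PBS and 30490 with exosomes. The ratio was lowest for Retnlg, with 3021 RPKM in PBS and 208.33 with exosomes (ratio 0.069), and for the granule protein genes Camp, with 381.38 and 33.92 (0.0889), Ngp, with 862.34 and 85.01 (0.0986), and Ltf, with 143.98 and 15.09 (0.105). Ly6g, which encodes the protein used in the sort, had 286.96 and 56.19 RPKM (ratio 0.196). Cd177 had a ratio of 0.234 and Mmp8, a collagenase, one of 0.240. S100a8, a calcium-binding protein, had 32823 RPKM in PBS and 14382 with exosomes (ratio 0.438). Of 20 monocyte or macrophage markers, which do not include the 10 genes, 9 were kept, with 6 up and 1 down (median log2 ratio 1.62). Over markers with at least 10 reads in both libraries, 13 of 14 were higher, 11 of them at least 2-fold. This rule leaves out markers that fell to few reads with exosomes. These were Lyve1 (about 223 and 9 reads), Vsig4 (28 and 9) and Clec4f (24 and 4). It also leaves out Folr2, which was higher with exosomes (6 and 31 reads). The summed RPKM of all 20 markers was 414.92 in PBS and 748.66 with exosomes.

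The macrophage markers with at least a 4-fold difference were Adgre1, an adhesion receptor, with 20.91 RPKM in PBS and 151.51 with exosomes (ratio 7.25), Apoe, with 28.64 and 169.37 (ratio 5.91), Ms4a7, with 1.02 and 16.79 (ratio 16.5), and F13a1, with 0.36 and 2.56 (ratio 7.11). Csf1r, the receptor of macrophage growth factor, had 58.1 and 152.64 RPKM (ratio 2.63). Ly6c2, a marker of inflammatory monocytes, differed the other way, with 184.41 RPKM in PBS and 37.12 with exosomes (ratio 0.201). Markers of resident macrophages differed among themselves. Siglec1, a sialic acid-binding receptor, had 0.13 RPKM in PBS and 1.59 with exosomes (ratio 12.2, interval 9.27 to 16.3), and Folr2, a folate receptor, had 0.07 and 0.33 on about 6 and 31 reads. On the other side, Vsig4 had 0.3 RPKM in PBS and 0.08 with exosomes, Lyve1 had 1.17 and 0.04, Clec4f had 0.15 and 0.02, and Timd4 was at 0 in both. Macrophage markers were therefore present in both libraries and mostly higher with exosomes, and their part in the values of the 10 genes was not tested. In bulk RNA, more cells of a type and more RNA per cell cannot be told apart.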

How the data were processed

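RNA of sorted mouse bone marrow neutrophils, treated with PBS or tumor exosomes, was measured in 1 library per group (TruSeq mRNA, HiSeq). The authors trimmed reads and computed the deposited RPKM values in CLC Genomics Workbench. The build is mm10 per the submitters' processing notes, and the annotation, the strand setting and the handling of multiply mapped reads are not given in the sources used here. Digit separators in large values were removed. Those above 0.01 were deposited rounded to 2 decimals.

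Positions and the length of the longest transcript came from GENCODE release 21 for mouse (GRCm38). Where an RPKM below 0.01 stands for 1 read, 1 divided by RPKM and length gives the depth. The commonest depth was 65.96 M (mega) mapped reads for PBS (224 of 918 low features) and 79.13 M for exosomes (259 of 1064). The depth ratio without lengths was 1.20 (219 of 415 features). Reads per gene were estimated from RPKM, length and this depth. Of the kept genes, 91.7% had a length. No count model was fitted.

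Ratios are exosome over PBS RPKM with no pseudocount. A gene was kept at an RPKM of at least 0.25 in both libraries and called at 2-fold, after the study. Intervals are 95% (Clopper-Pearson for ratios, Poisson for levels, treating the depths as known), and 3 reads were taken as the lowest comparable level. Named were all 10 genes, list genes kept that differed at least 4-fold, TAM ligands and kinases, C1r and C1s genes, LAMP and mannose receptor relatives, and the marker genes needed. Members and lists were chosen with earlier results of these data known. Alternatives were other centrings (median, trimmed mean of log ratios, level-dependent over a window of neighbors in level), TPM, pseudocounts of 1 and 0.25, other filters and a 4-fold call. Scripts were tested on simulated data. Python 3.11.15, pandas 2.3.3, numpy 2.4.6 and scipy 1.17.1 were used.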

Additional observations from a re-analysis of the deposited data

How the results depend on the processing

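Of 54 log2 ratios of single genes under other settings, 27 stayed within the counting interval of the gene, 27 moved further and 0 changed direction. A pseudocount cannot change the direction of a ratio, and TPM raised every ratio by the same factor. Only the centrings could therefore have changed a direction. For Mrc1, Mertk and Axl the level-dependent values rest on the lowest kept genes, which lie above them in level. The median log2 ratio of the kept genes among the 10, 2.94 as reported, was 2.41 with median centring, 2.40 after removal of the trimmed mean log ratio, 1.86 with level-dependent centring, 1.42 with a pseudocount of 1, 1.94 with a pseudocount of 0.25 and the filter in either library, and 1.99 at an RPKM of at least 1, where 2 genes were left. Among the 10 genes, 4 of the 5 kept were up as reported, beside 31.5% of all genes kept. With the pseudocount of 0.25 it was 7 of 8 (28.4% of all genes). At an RPKM of at least 1 it was 1 of 2 (25.6%), and with no filter 8 of 10 (32.3%). With at least 10 estimated reads, a rule added after seeing the data, it was 8 of 9 (32.4%). Over all 9698 kept genes, 3056 were up and 545 down. These became 1634 and 1282 with median centring, and 1596 and 1321 with the trimmed mean removed. They were 1215 and 1329 with level-dependent centring, 1976 and 400 with a pseudocount of 1, and 826 and 111 at 4-fold. Other filters changed the number of genes. With the pseudocount of 0.25, 3045 of 10707 genes were up and 557 down. At an RPKM of at least 1, 1958 of 7644 were up and 408 down. With no filter, 4508 of 13970 (32.3%) were up and 1436 (10.3%) down. Axl fell below 2-fold with median centring (log2 ratio 0.997) and stood at 0.19 with a pseudocount of 1, against 0.41 for Mrc1 and 0.51 for Mertk. Cd68 lay between 0.26 and 0.84. With the union of exons as length, a choice added after seeing the data, the PBS reads of Msr1 were 356 in place of 204 and those of C1qc 34 in place of 21, which leaves the ratios as they are. Values on fewer than 30 PBS reads (Mrc1, Mertk, Axl and the C1q chains) are the least precise.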

Other observations

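Markers of other cell types were mostly lower with exosomes. The summed RPKM of 9 lymphocyte markers was 161.84 in PBS and 71.7 with exosomes, with 6 of 6 lower among those with at least 10 reads. Cd3d, a chain of the T cell receptor complex, had 56.44 RPKM in PBS and 7.02 with exosomes (ratio 0.124). The other chains of this complex in the list were far lower in PBS already. Cd3g had 1.19 and 0.11 RPKM, and Cd3e had 0.06 and 0.04 on about 10 and 8 reads. The level of Cd3d alone is therefore no measure of T cells. Cd79a, a chain of the B cell receptor, had 38.25 and 24.44 (ratio 0.639) and is named after its values were seen. The sum of 8 dendritic cell markers was 4.94 in PBS and 2.82 with exosomes, and that of 6 eosinophil, mast cell or basophil markers was 8.58 and 4.82. For 7 erythroid or platelet markers it was 33.9 and 31.0, and for 6 epithelial markers it was 1.2 and 1.05. In none of these 5 lists was a kept gene up 2-fold, but this filter leaves out genes low in PBS. The lymphocyte marker Klrb1c had 0.01 RPKM in PBS and 0.51 with exosomes, on about 2 and 106 reads. The dendritic cell marker Xcr1 had 0.00681 and 0.1 RPKM, on about 2 and 35 reads. Neither was kept or entered the counts over at least 10 reads. Other markers that were not kept were lower with exosomes, such as Cd209a of dendritic cells with 0.64 and 0.1 RPKM.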
